A study of Mus musculus with 68 samples.

Results

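The genes described here encode the proteins of the mitochondrial ribosome. They were taken as all gene symbols in the count tables that begin with Mrpl or Mrps followed by a digit, pseudogenes left out, which gave 77 of 24059 symbols. By symbol, 48 belong to the large subunit (Mrpl) and 29 to the small subunit (Mrps). RNA had been sequenced from erythroid cells enriched from mouse bone marrow by flow cytometry, in 68 libraries. The stage series, 1 of 2 sets, held 38 libraries with no genotype in the labels: 3 of BFU-E, 5 of CFU-E, 7 of ERY-I (ProE), 4 of ERY-II (BasoE), 4 of ERY-III (PolyE), 4 of ERY-IV (OrthoE), 7 of ERY-V (Retic) and 4 of ERY-VI (RBC). BFU-E and CFU-E are burst-forming and colony-forming erythroid progenitors, the names that follow mark proerythroblasts and basophilic, polychromatic and orthochromatic erythroblasts, and the last gates hold reticulocytes and red blood cells. A further set, the knockout series, held 30 libraries, 3 of GS-KO and 3 of WT in each of 5 gates: BFU-E and CFU-E as above, ERY-I-II (ProE/BasoE), ERY-III-VI (PolyE/OrthoE) and ERY-V-VI (Retic/RBC). The name ERY-III-VI is kept as in the labels, although its source name covers PolyE and OrthoE. GS-KO is read as a knockout of glutamine synthetase, the product of Glul, which the labels do not spell out. The sources used here give no allele, Cre driver, strain or age and do not say whether animals were pooled.

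Mitochondrial ribosomes are bound to the inner membrane and make the few respiratory chain proteins that mitochondrial DNA encodes. Their RNA is transcribed from mitochondrial DNA, but all of their proteins are encoded in the nucleus, made in the cytosol and imported. Erythroid cells carry out the opening and closing steps of haem synthesis in mitochondria, and they lose mitochondria and ribosomes as reticulocytes mature into red cells.

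Of the 77 proteins, 46 have a counterpart in bacterial ribosomes and 30 are specific to mitochondria. Mrps36 was left out of these lists because it has also been reported as a subunit of the 2-oxoglutarate dehydrogenase complex. It is counted among the 77 members and the 29 small subunit genes throughout. RefSeq promoter windows on GRCm38.p6, here the 250 bases before the start of the gene in RefSeq, were found for 68 of the 77 genes. The letters GCATGCG, a core of the site of nuclear respiratory factor 1 (NRF1), stood on either strand in 8 of the 68 promoters (11.8%) and in 3.07% of all 27025 promoters. The letters CCGGAAG, bound by many ETS factors, stood in 16 of 68 (23.5%) and in 7.05% of all promoters. ATGGCGG (YY1) stood in 1 member promoter (1.47%) and in 2.19% of all, CACGTG (E-box) in 5 (7.35%) and 6.05%, and AGATAA, the letters of GATA factors, in 11 (16.2%) and 10.3%. A match of letters is a description and not a site. Shown here, 5′ to 3′ on the strand of the gene and with the matched letters in capitals, are the promoters of 4 genes. Of the 13 genes followed through the comparisons below, 7 hold the NRF1 or ETS letters, and these are the 4 that come first by symbol; the others are Mrps18b, Mrps18c and Mrps22. Positions are counted from the RefSeq start. Mrpl10 (chr11:97041332-97041581, plus strand) holds the NRF1 letters on both strands in 1 overlapping run that starts at -135 from the gene start. Mrpl3 (chr9:105053018-105053267, plus strand) holds the ETS letters at -19, Mrps16 (chr14:20393491-20393740, minus strand) at -74 as CTTCCGG, and Mrps18a (chr17:46110754-46111003, plus strand) at -26. GENCODE M21 starts these genes inside the windows, at position 97041560 for Mrpl10, 105053239 for Mrpl3, 20393634 for Mrps16 and 46110986 for Mrps18a. By those starts the letters of Mrpl10 and Mrps18a lie before the gene, and those of Mrpl3 and Mrps16 inside it.
Mrpl10: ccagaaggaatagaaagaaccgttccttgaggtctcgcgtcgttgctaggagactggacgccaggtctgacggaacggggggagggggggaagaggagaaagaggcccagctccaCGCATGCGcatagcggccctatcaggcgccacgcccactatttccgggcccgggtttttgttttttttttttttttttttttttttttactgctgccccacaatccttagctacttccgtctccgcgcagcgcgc
Mrpl3: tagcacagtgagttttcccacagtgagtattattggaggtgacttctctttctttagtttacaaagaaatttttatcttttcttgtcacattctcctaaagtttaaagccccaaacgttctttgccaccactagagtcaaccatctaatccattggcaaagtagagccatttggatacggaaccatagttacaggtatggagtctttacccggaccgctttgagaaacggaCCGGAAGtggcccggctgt
Mrps16: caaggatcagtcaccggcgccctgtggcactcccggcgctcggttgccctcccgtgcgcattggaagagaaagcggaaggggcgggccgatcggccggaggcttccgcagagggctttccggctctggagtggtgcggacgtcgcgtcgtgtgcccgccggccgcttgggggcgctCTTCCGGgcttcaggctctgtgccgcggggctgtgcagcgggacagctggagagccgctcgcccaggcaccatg
Mrps18a: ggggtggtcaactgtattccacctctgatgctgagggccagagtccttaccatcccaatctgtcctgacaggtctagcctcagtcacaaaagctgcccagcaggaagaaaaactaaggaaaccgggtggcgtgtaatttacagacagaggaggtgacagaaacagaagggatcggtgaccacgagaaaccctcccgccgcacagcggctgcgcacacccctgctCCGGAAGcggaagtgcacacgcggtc

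Library totals ranged between 1630863 and 11472763 counts in the stage series and between 3131142 and 15806844 in the knockout series. Levels are counts per 1000000 counts of the library total (CPM), and comparisons are log2 fold changes from edgeR's quasi-likelihood test with TMM scaling. The test gives no standard error (SE). The SE given here is the absolute log2 fold change divided by the square root of the test's F, and is approximate. A gene is called where its Benjamini-Hochberg adjusted p over all genes tested was under 0.05. The labels do not say that replicates came from separate animals or cultures, so p-values measure only how far libraries spread, and that spread may be technical. In the stage series, 12 libraries held Y-linked transcripts (replicates 1 to 3 of both progenitor gates, of ERY-I and of ERY-V) and the other 26 held Xist. Libraries of 1 group differed by a mean chi-square per gene of 1.46 to 8.75 within the Y-positive libraries, of 9.38 to 164.6 within those with Xist and of 80.8 to 356.9 across both, so results are also given without 1 of these sets where that changes them. In the knockout series all libraries held Y-linked transcripts and the measure was 1.30 to 6.40. Of the 9 erythroid markers, 8 or 9 were detected in every library.

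In the stage series the summed level of the mitoribosomal protein genes was highest in CFU-E and lowest in red cells. BFU-E libraries had 3504, 3507 and 3554 CPM, and CFU-E libraries had 4484, 4571, 4512, 7444 and 6737 CPM, the last 2 being those with Xist. ERY-I had a low of 2257, a median of 2327 and a high of 3781 CPM over 7 libraries. In ERY-II the sum was 741, 672, 713 and 434 CPM, so every ERY-II library lay below every ERY-I library. It was 789, 877, 958 and 705 CPM in ERY-III and 485, 472, 354 and 448 CPM in ERY-IV. ERY-V had a low of 90.5, a median of 244 and a high of 299 CPM, and ERY-VI had 28.9, 62.9, 52.1 and 95.04 CPM. The group means were 3522 ± 27.7 CPM in BFU-E (SD, n = 3), 5549.7 ± 1429 for CFU-E (n = 5), 2649 ± 550.2 at ERY-I (n = 7), 639.8 ± 140.4 for ERY-II (n = 4), 832 ± 109.7 in ERY-III (n = 4), 439.9 ± 59.1 for ERY-IV (n = 4), 209.9 ± 86.2 at ERY-V (n = 7) and 59.7 ± 27.5 in ERY-VI (n = 4). Ordered by level, BFU-E and ERY-I overlapped, as did ERY-III and ERY-II, ERY-II and ERY-IV, and ERY-V and ERY-VI, while CFU-E and BFU-E did not.

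**Figure D1:**
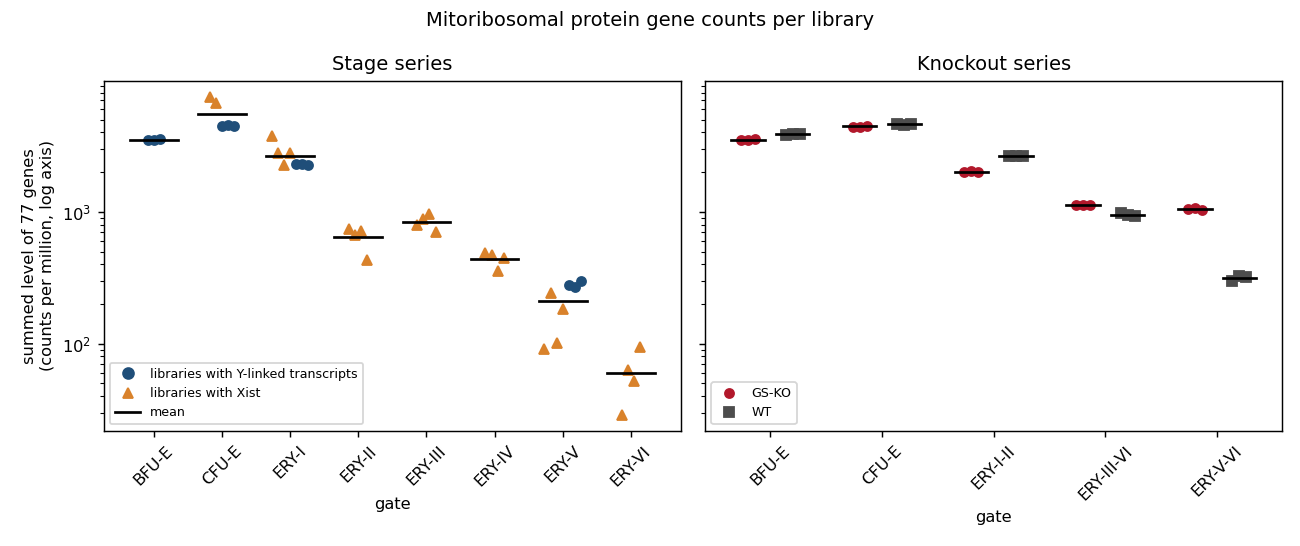
Summed level of the 77 mitoribosomal protein genes in each library, in CPM (counts per 1000000) on a log axis, by gate of the stage series (left; circles are libraries with Y-linked transcripts, triangles those with Xist) and of the knockout series (right); black bars are group means. CFU-E is highest in both series, and in ERY-V-VI the GS-KO libraries (1026 to 1074) lie above the WT libraries (300.3 to 324).

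A level in CPM is a share of the library, and globin transcripts took 0.987% to 9.99% of counts in ERY-I and 57.2% to 71.1% in ERY-VI. With the globin genes left out of the total, the members' sum was 2765 ± 579 CPM in ERY-I, 891 ± 112 in ERY-II and 161 ± 56.4 in ERY-VI. On that scale 74 of the 77 genes had their highest group mean in CFU-E. The exceptions were Mrpl50, highest in BFU-E, and Mrpl14 and Mrpl53, highest in ERY-I. In bulk RNA, fewer cells of a kind and less RNA per cell cannot be told apart.

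**Figure D2:**
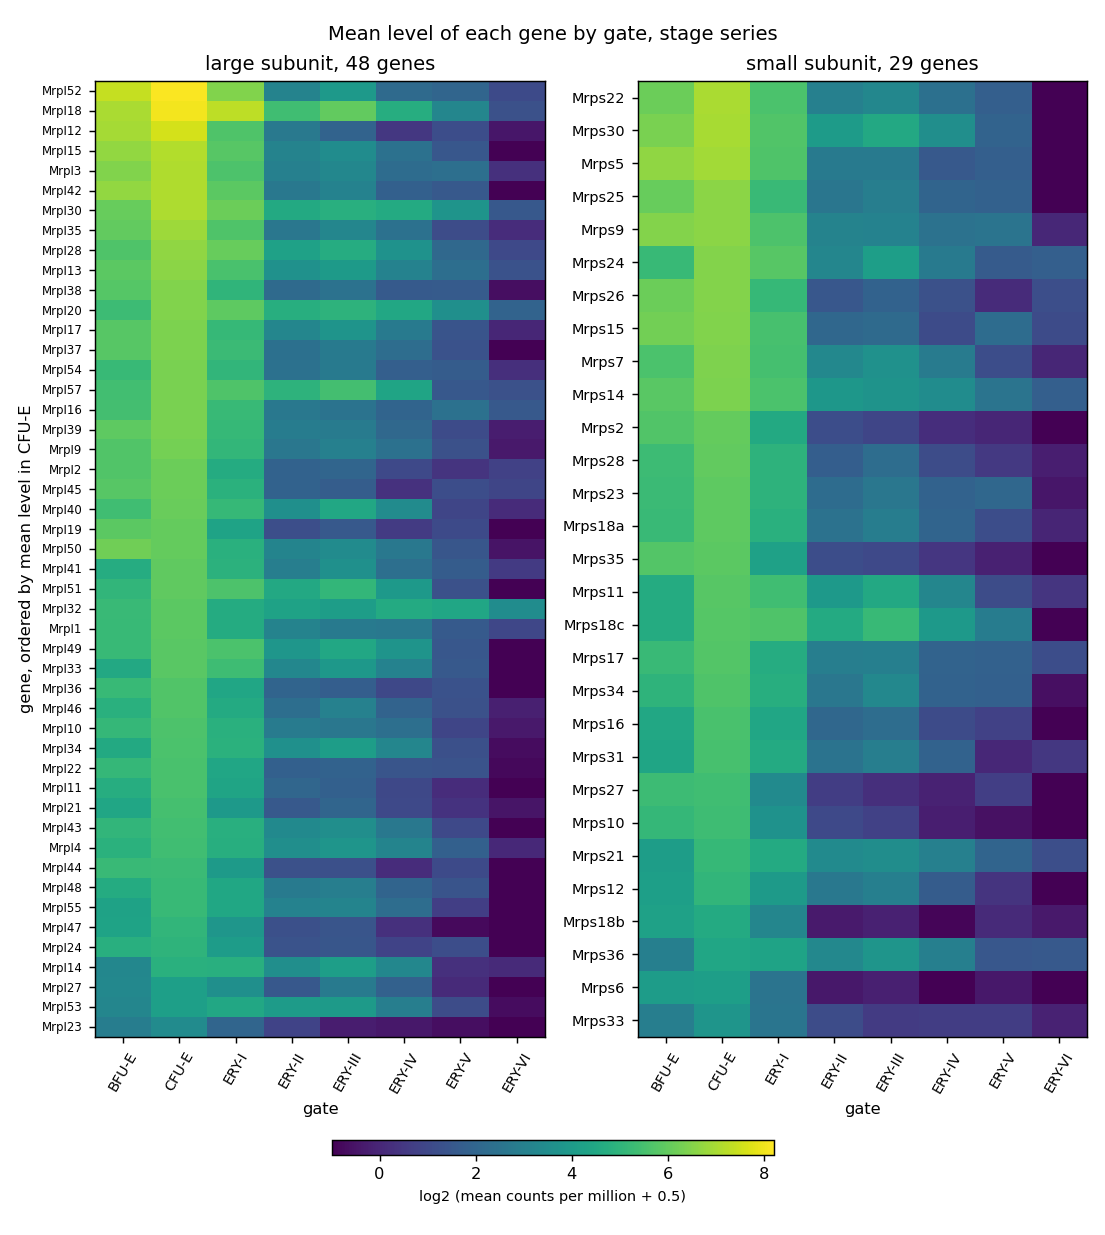
Heat map of the group mean of each gene, as log2 of CPM plus 0.5, over the 8 gates of the stage series; the 48 large subunit genes stand left and the 29 small subunit genes right, each ordered by its CFU-E mean. Rows are brightest in CFU-E and darken between ERY-I and ERY-II in most, while Mrpl32 (low of ERY-VI 6.48 CPM) keeps its colour further than the rows beside it.

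Per kilobase of exon, levels in CFU-E differed widely between genes. Mrpl52, a large subunit protein specific to mitochondria, stood highest with 252 ± 122 CPM per kilobase, followed by Mrpl18 (186 ± 66.2), Mrpl12 (127 ± 13.5), Mrpl54 (99.4 ± 48.7) and Mrps28 (80.7 ± 30.2; SD, n = 5). Neighbours in this order overlapped within 1 SD. At the low end stood Mrpl23 (2.14 ± 0.872), Mrpl48 (4.49 ± 2.06) and Mrps10 (4.94 ± 0.530). Mrpl23 and Mrpl48 each have 1 named pseudogene and Mrps36 has 3, and their counts are uncertain where reads could be shared. In GENCODE M21, 20 of the 77 genes share exonic bases with a protein-coding gene on the opposite strand and 4 with a gene on their own strand. The strand setting of the counting is not given in the sources used here, so reads of such partners cannot be told apart. Mrpl18, a protein of the central protuberance where the large subunit meets the small one, held rank 1 of 77 in each of the 4 gates ERY-I to ERY-IV. Mrpl12, which forms the stalk that recruits translation factors, ranked 3 in BFU-E and CFU-E, 11 in ERY-I, 26 at ERY-II, 42 in ERY-III and 57 in ERY-IV.

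Many mitoribosomal genes were higher in CFU-E than in BFU-E, the step between the progenitor gates. Of 77 members tested, 50 were called higher and 0 lower, beside 37.3% of all genes called (18.2% higher and 19.1% lower). The calls were 33 of 48 large and 17 of 29 small subunit genes. The members' median log2 fold change was 0.83, beside -0.01 for all genes (-0.14 with library totals in place of TMM, 0.67 for the members). Mrps36 had 16.8, 16.1, 17.3, 24.5 and 31.01 CPM in CFU-E against 6.799, 7.68 and 7.69 CPM in BFU-E. All CFU-E libraries stood above all BFU-E libraries, with a log2 fold change of 1.66 ± 0.30 (SE; adjusted p = 0.0033, edgeR). Mrpl9, which has a bacterial counterpart, had 73.2, 79, 73.9, 83.96 and 78.02 CPM in CFU-E against 49.5, 50.5 and 53.6 CPM in BFU-E (0.74 ± 0.12, adjusted p = 0.0016, edgeR). Its libraries lay close together within each gate and apart between them.

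All 3 stalk genes were called higher in CFU-E. Mrpl12 (chr11:120484613-120489065, plus strand) had 177, 181, 181, 224 and 208 CPM in CFU-E against 113, 129 and 134 CPM in BFU-E, a log2 fold change of 0.77 ± 0.15 (adjusted p = 0.0045, edgeR), without overlap. Mrpl11 was at 0.996 and Mrpl10 at 0.63. Mrps24 (1.47), the counterpart of bacterial S3, rose, as did Mrpl41 (1.45), Mrpl54 (1.35) and Mrpl20 (1.30). Among genes whose human counterparts cause respiratory chain deficiency when mutated, Mrpl3 (0.82) and Mrps22 (1.07) rose, and Mrps16 (1.19 ± 0.44, adjusted p = 0.061) and Mrpl44 (0.16 ± 0.17, adjusted p = 0.47) were not called. Mrps12, at the decoding centre, was at 1.01 ± 0.37 and Mrps30, a large subunit protein despite its symbol, at 0.81 ± 0.30, both with adjusted p = 0.059. The S18 forms, which are 3 related proteins at different places of the ribosome, were at 0.81 for Mrps18a and 1.31 for Mrps18c, both called, and at 0.53 ± 0.22 for Mrps18b, not called. The count of 50 was 14, 16 and 13 without BFU-E replicate 1, 2 and 3. All genes called fell too, from 1964 higher and 2067 lower of 10807 to 980 and 1315 of 11060 without replicate 1. They were 973 and 1318 of 11071 without replicate 2, and 993 and 1325 of 11088 without replicate 3. Of the 50 genes, 11 were called in every fit that left out 1 library. With the 3 Y-positive libraries of each gate summed to 1, BFU-E held 1 library, so calls of that fit are not read here. Between Y-positive libraries alone 65 were called higher and 1 lower, with a median of 0.47. The share of all genes called among those libraries is not given here.

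In ERY-I many members were lower than in CFU-E. The test called 44 of 77 lower and 0 higher, beside 46.4% of all genes called (25.4% higher and 20.9% lower); 27 were large and 17 small subunit genes. The median was -0.72 for the members and 0.05 for all genes (-1.11 and -0.31 with library totals). Mrpl12 had a low of 25.6, a median of 51.04 and a high of 68.8 CPM in ERY-I, against 177, 181, 181, 224 and 208 CPM in CFU-E. The gates were far apart, with a log2 fold change of -1.62 ± 0.16 (adjusted p = 2.5e-05, edgeR). Mrps27, a pentatricopeptide repeat protein of the small subunit, had a low of 3.46, a median of 9.62 and a high of 15.4 CPM in ERY-I, against 40.3, 47.4, 45.8, 41.4 and 29.2 CPM in CFU-E. It did not overlap either and fell by 1.70 on the log2 scale (adjusted p = 0.00033, edgeR).

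Mrps6 (-1.41), Mrpl19 (-1.41) and Mrpl15 (-0.998), all with bacterial counterparts, fell in ERY-I, as did Mrpl3 (-1.14), Mrps22 (-1.07), Mrpl44 (-0.95), Mrps30 (-0.93), Mrpl11 (-0.82) and Mrpl10 (-0.45). Mrps16 (-0.72 ± 0.40) and Mrps12 (-0.66 ± 0.32) were not called. Of the S18 forms, Mrps18b fell by 1.15 and Mrps18a by 0.71 on the log2 scale. Mrps18c had a low of 26.7, a median of 60.2 and a high of 75.6 CPM in ERY-I, against 31.6, 31.6, 36.7, 90.3 and 84.2 CPM in CFU-E (0.30 ± 0.45, adjusted p = 0.62). In both gates its 3 Y-positive libraries were the lowest. Mrps36 was at 0.30 ± 0.36 (adjusted p = 0.52), and at -0.40 (adjusted p = 0.018) between Y-positive libraries alone, among which 70 members were called lower and 1 higher. Between libraries with Xist alone 55 members were called lower and 0 higher, and with the replicate number as a block 65 and 1. The shares of all genes above belong to the main fit, and those of these other fits are not given here. Summed neutrophil markers were 0.409 to 13116 CPM in ERY-I, with the Y-positive libraries highest, and 4.001 to 28 CPM in CFU-E; their part in these differences was not tested.

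Many members were lower again in ERY-II than in ERY-I. Of 77, 43 were called lower and 1 higher, beside 45.3% of all genes called (20.2% higher and 25.1% lower); 26 of the lower ones were large and 17 small subunit genes. The median was -1.12 for the members and -0.35 for all genes (-2.42 and -1.67 with library totals, under which 73 members were called, all lower). Between libraries with Xist alone 53 of 76 were called lower and 0 higher. The shares of all genes above belong to the TMM fit of all libraries, and those of the other fits are not given here. Mrps26, a small subunit protein specific to mitochondria, had 2.37, 3.67, 2.34 and 1.05 CPM in ERY-II, against a low of 22.3, a median of 35.2 and a high of 49.7 CPM in ERY-I. The lowest ERY-I library lay well above the highest ERY-II library, and the log2 fold change was -2.59 ± 0.24 (adjusted p = 4.4e-05, edgeR). Mrps15 (chr4:126046925-126055532, plus strand) had 3.16, 7.34, 3.59 and 0.526 CPM in ERY-II, against a low of 25.6, a median of 45.4 and a high of 65.9 CPM in ERY-I (-2.40 ± 0.41, adjusted p = 0.00084). Mrps2 (-2.59), Mrpl42 (-1.95), Mrpl44 (-1.82), Mrpl3 (-1.51) and Mrps22 (-1.40) fell with them, and all 3 stalk genes were lower, Mrpl12 at -1.76, Mrpl11 at -1.22 and Mrpl10 at -0.70. Mrps16 (-1.15 ± 0.45), Mrps30 (-0.36 ± 0.26), Mrps12 (-0.15 ± 0.30) and Mrps36 (0.18 ± 0.38) were not called.

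Mrps18b was down to 3 counts over the 4 ERY-II libraries against 347 over the 7 ERY-I libraries, a ratio of levels of 0.0231 with a 95% Poisson counting interval of 0.00475 to 0.0682. Such intervals cover counting error only. Mrps18a fell by 1.05 on the log2 scale, and Mrps18c was at 0.28 ± 0.41 (adjusted p = 0.60; -1.03 with library totals). Mrpl32 (chr13:14608184-14613165, minus strand), whose cleavage by a protease of the inner membrane precedes its assembly into the ribosome, was the 1 gene called higher. It had 21.3, 13.6, 18.9 and 22.4 CPM in ERY-II, against a low of 19.1, a median of 22.5 and a high of 36.3 CPM in ERY-I. Its share of counts overlapped between the gates and was lower on average in ERY-II, while the TMM-scaled log2 fold change was 1.06 ± 0.30 (adjusted p = 0.015), and -0.37 (adjusted p = 0.18) with library totals.

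Beyond ERY-II few members passed the test. In ERY-III against ERY-II, edgeR called 0 of 66 tested members, beside 0.185% of all genes called (0.185% higher and 0% lower). An unadjusted edgeR p under 0.05 was found for 9 of the 66 members and for 12.5% of all genes, so the shares are near each other. DESeq2 called 0 members. The median was 0.20 for the members and -0.02 for all genes (0.37 and 0.15 with library totals). Mrps18c had 30.9, 33.1, 44.4 and 35.2 CPM in ERY-III against 22.5, 25.7, 29.7 and 20 CPM in ERY-II, above it in every library but not called (0.39 ± 0.23, adjusted p = 0.53). Mrpl12 (-1.02), Mrpl10 (-0.39), Mrpl11 (-0.35), Mrps12 (0.13), Mrps18a (0.20), Mrps30 (0.36), Mrps36 (0.36), Mrpl3 (0.26), Mrps22 (0.16) and Mrps16 (-0.02) were not called. Mrps18b and Mrpl44 had too few counts to be tested. In ERY-IV against ERY-III, 2 of 60 were called lower and 0 higher, beside 13.6% of all genes called (10.3% higher and 3.29% lower). The members' share called lower is thus near that of all genes. The medians were -0.41 for the members and -0.07 for all genes (-1.02 and -0.63 with library totals). With library totals 10 members were called lower, and DESeq2 called 4, and the shares of all genes in these fits are not given here. Mrpl18 (chr17:12911349-12916345, minus strand) had 33.4, 33.9, 15.6 and 20.4 CPM in ERY-IV against 62.9, 74.2, 66.6 and 48.2 CPM in ERY-III, without overlap (-0.74 ± 0.16, adjusted p = 0.012); it shares exonic bases with Tcp1 on the opposite strand. Mrpl52 had 2.86, 5.27, 3.01 and 4.87 CPM in ERY-IV against 14.04, 15.9, 19.4 and 9.68 CPM in ERY-III, also without overlap (-1.26 ± 0.34, adjusted p = 0.031). Mrpl10 (0.27), Mrps12 (-0.83), Mrps18a (-0.44), Mrps18c (-0.65), Mrps30 (-0.47), Mrps36 (-0.33), Mrpl3 (-0.50), Mrps22 (-0.21) and Mrps16 (-0.81) were not called. Mrpl12, Mrpl11, Mrps18b and Mrpl44 had too few counts to be tested. With the replicate number as a block, under which same-numbered libraries deviated together in these gates, 7 members were called lower and 1 higher in ERY-IV, and 3 higher in ERY-III. The count of 2 was 1 without any of the 4 ERY-III libraries and without ERY-IV replicate 2 or 3, and 3 without ERY-IV replicate 4.

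In ERY-V against ERY-IV, edgeR called 0 of 50 tested members, beside 8.83% of all genes called (6.49% higher and 2.33% lower). An unadjusted edgeR p under 0.05 was found for 5 of the 50, all lower, and for 23.7% of all genes, so the members' share is the smaller. DESeq2 called 4 members. With library totals edgeR called 2, and the shares of all genes in these other fits are not given here. The count was 1 without ERY-V replicate 5, 6 or 7. The median was -0.44 for the members and 0.06 for all genes (-1.13 and -0.72 with library totals). Mrpl10 (-0.84), Mrps18a (-0.47), Mrps18c (-0.55), Mrps30 (-1.06), Mrps36 (-0.33), Mrpl3 (0.99) and Mrps22 (-0.26) were not called. Mrpl12, Mrpl11, Mrps12, Mrps18b, Mrpl44 and Mrps16 had too few counts to be tested. Counts thinned out at this point: 3 to 4 of the 77 genes were at 0 in an ERY-IV library, 0 to 39 in an ERY-V library and 52 to 59 in an ERY-VI library, where all members together had 98, 133, 93 and 155 counts. In ERY-VI against ERY-V, 8 members could be tested and Mrps18c was called, beside 7.83% of all genes called (3.32% higher and 4.51% lower). It had 0 counts in the 4 ERY-VI libraries against 124 in the 7 ERY-V libraries, at least 16.8-fold lower at a floor of 3 counts over the group. That call was lost without any 1 of the ERY-VI libraries and without ERY-V replicate 1, 3, 5 or 7. Mrpl12, Mrpl10, Mrpl11, Mrps12, Mrps18a, Mrps18b, Mrps30, Mrps36, Mrpl44, Mrpl3, Mrps22 and Mrps16 had too few counts to be tested. Mrpl32 had 13.4, 23.4, 27.6 and 31.3 CPM in ERY-IV, a low of 17.8, a median of 19.8 and a high of 27.96 CPM at ERY-V, and 6.48, 8.52, 15.7 and 12.3 CPM in ERY-VI. It was thus detected in every library of the last 3 gates.

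Over the span between CFU-E and ERY-IV, 57 of 77 members were called lower and 0 higher in ERY-IV than in CFU-E, beside 72.6% of all genes called (29.7% higher and 42.9% lower). The median was -1.99 for the members and -0.48 for all genes (-4.03 and -2.51 with library totals). With library totals all 77 members were called lower, and between libraries with Xist alone 61 were. For these other fits the shares of all genes are not given here. The calls were 34 of 48 large and 23 of 29 small subunit genes, and 34 of 46 genes with a bacterial counterpart (median -1.98) and 23 of 30 specific to mitochondria (median -2.11). They held 7 of 7 genes around the exit of the peptide tunnel (median -3.38), 3 of 3 stalk genes (median -2.87) and 4 of 6 of the central protuberance (median -1.32). Differences between these groups of genes were not tested.

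Mrpl12 had 1.34, 0.585, 0.753 and 0.928 CPM in ERY-IV against 177, 181, 181, 224 and 208 CPM in CFU-E, a log2 fold change of -5.63 ± 0.29 (adjusted p = 8.0e-09, edgeR). The other stalk genes fell by 2.87 (Mrpl11) and 1.34 (Mrpl10) on the log2 scale. Mrps6, the counterpart of bacterial S6, was at 0 counts in ERY-IV against 659 in CFU-E, at least 106-fold lower at a floor of 3 counts over the group. Mrps10 (-4.77 ± 0.43), Mrpl44 (-3.80 ± 0.45), Mrps5 (-3.58 ± 0.22), Mrpl3 (-2.96 ± 0.29), Mrps16 (-2.88 ± 0.75), Mrps22 (-2.62 ± 0.42), Mrps12 (-1.57 ± 0.38) and Mrps30 (-1.45 ± 0.30) fell.

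The 3 S18 forms ended at unequal levels. Mrps18b had 1 count in ERY-IV against 855 in CFU-E, a ratio of levels of 0.00243 with a 95% Poisson counting interval of 6.16e-05 to 0.0136. Mrps18a had 2.35, 5.27, 2.26 and 3.71 CPM in ERY-IV against 54.7, 49.4, 48.6, 59.3 and 85.8 CPM in CFU-E (-2.10 ± 0.33, adjusted p = 9.6e-05). Mrps18c had 22.2, 10.5, 14.3 and 13.7 CPM in ERY-IV against 31.6, 31.6, 36.7, 90.3 and 84.2 CPM in CFU-E. All ERY-IV libraries stood below all CFU-E libraries in CPM, and the log2 fold change was 0.23 ± 0.41 (adjusted p = 0.62) with TMM and -1.84 with library totals. Mrps36 was likewise at 0.48 ± 0.34 (adjusted p = 0.22) and at -1.504 with library totals.

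**Figure D3:**
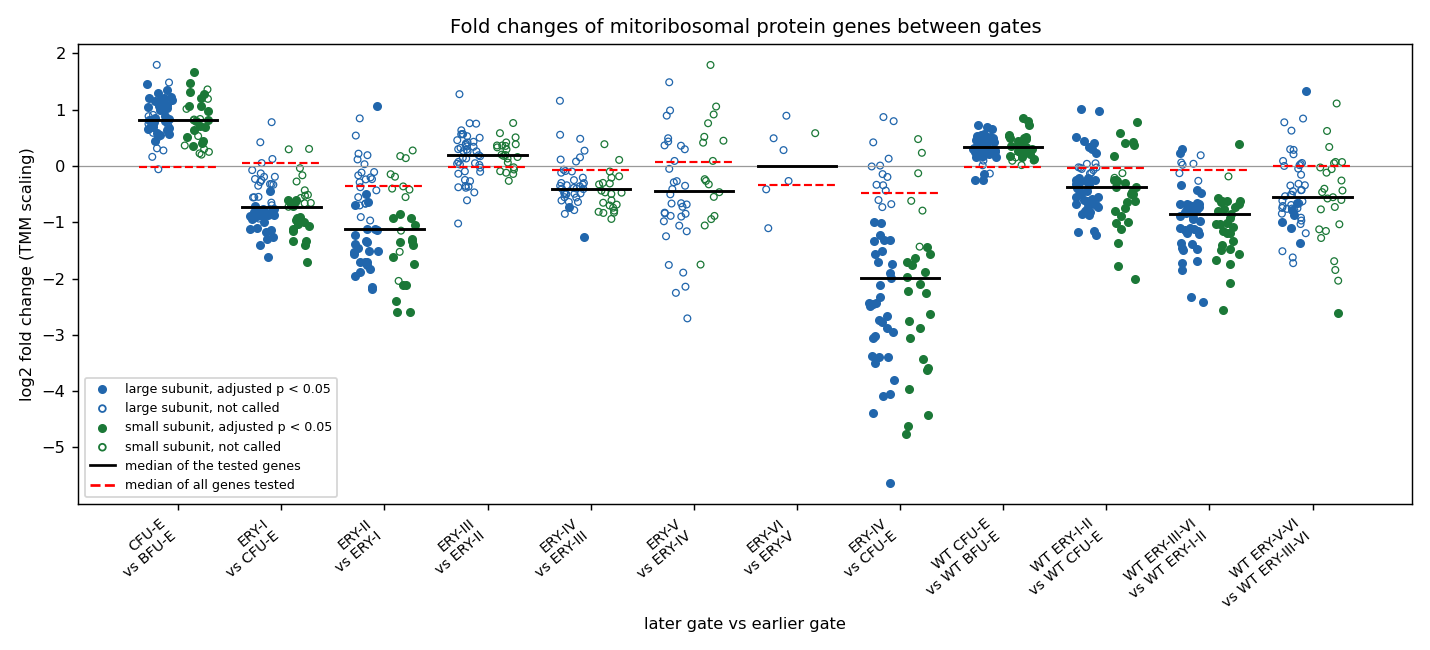
Log2 fold change (TMM scaling) of each tested member between a later and an earlier gate, for the stage series and for WT of the knockout series; points are genes, large subunit left and small subunit right in each column, filled where the adjusted p was under 0.05, with members at 3 counts or fewer in a group left out. Black bars are the members' medians and red dashes the medians of all genes; the members' median is 0.83 in CFU-E over BFU-E and -1.99 in ERY-IV over CFU-E.

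The WT libraries of the knockout series are separate from these and were set side by side over 5 gates. In WT CFU-E against WT BFU-E, 67 of 77 members were called higher and 3 lower, beside 70.5% of all genes called (34.5% higher and 36% lower), with medians of 0.33 for the members and -0.03 for all genes (0.22 and -0.13 with library totals). Mrpl18 had 191, 186 and 189 CPM in WT CFU-E against 121, 123 and 125 CPM in WT BFU-E (0.72 ± 0.04, adjusted p = 1.7e-31, edgeR), with wide gaps between the gates. Mrps36 (0.86), Mrps24 (0.80), Mrps31 (0.73), Mrps16 (0.55), Mrps22 (0.52), Mrpl3 (0.49) and Mrpl12 (0.46) rose, and Mrpl24 (-0.25), Mrpl48 (-0.25) and Mrpl50 (-0.15) fell. Mrps12 was not called (0.02 ± 0.12). Mrpl10 (0.17), Mrpl11 (0.27), Mrps18a (0.17), Mrps18b (0.23), Mrps18c (0.37), Mrps30 (0.23) and Mrpl44 (0.18) were also called higher.

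In WT ERY-I-II against WT CFU-E, 51 members were called lower and 14 higher, beside 81.8% of all genes called (39.9% higher and 41.9% lower). With library totals 65 were lower and 3 higher, for which the share of all genes is not given here. The medians were -0.36 for the members and -0.03 for all genes (-0.80 and -0.47 with library totals). Mrpl12 had 63.9, 63.7 and 63.2 CPM in WT ERY-I-II against 191, 186 and 194 CPM in WT CFU-E, far apart (-1.15 ± 0.05, adjusted p = 7.2e-24). Mrps27 (-2.003), Mrps6 (-1.78), Mrps18b (-1.37), Mrpl36 (-1.22), Mrpl52 (-0.86), Mrpl44 (-0.85) and Mrps22 (-0.75) fell. Mrps18c had 42.9, 41.1 and 38.2 CPM in WT ERY-I-II against 33.3, 29.8 and 32.2 CPM in WT CFU-E and rose (0.79 ± 0.09, adjusted p = 8.3e-11), as did Mrpl14 (1.01), Mrpl53 (0.97) and Mrps36 (0.58). Mrpl14 shares exonic bases with Tmem63b on the opposite strand and Mrpl53 with Gm42688 on its own. Mrpl10 (-0.21), Mrpl11 (-0.38), Mrps18a (-0.36), Mrps30 (-0.50), Mrpl3 (-0.55) and Mrps16 (-0.27) were also called lower. Mrps12 (-0.21) was not called.

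In WT ERY-III-VI against WT ERY-I-II, 67 of 77 members were called lower and 3 higher, beside 73.4% of all genes called (35.3% higher and 38.1% lower), with medians of -0.85 and -0.07 (-1.57 and -0.78 with library totals). Mrpl12 had 6.57, 9.31 and 5.37 CPM in WT ERY-III-VI against 63.9, 63.7 and 63.2 CPM in WT ERY-I-II, again without overlap (-2.41 ± 0.14, adjusted p = 9.8e-17). Mrps2 (-2.09), Mrpl36 (-1.85), Mrps35 (-1.74), Mrpl11 (-1.69), Mrpl44 (-1.48), Mrps18b (-1.47), Mrpl52 (-1.47), Mrps16 (-1.40) and Mrpl3 (-1.11) fell, and Mrps18c was at -0.19 ± 0.12 (adjusted p = 0.16). Mrps36 (0.40), Mrpl49 (0.31) and Mrpl57 (0.23) were called higher although their CPM was lower in WT ERY-III-VI, and with library totals they were at -0.32, -0.41 and -0.49. Mrpl10 (-0.71), Mrps12 (-1.01), Mrps18a (-0.74), Mrps30 (-0.92) and Mrps22 (-0.81) were also called lower.

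In WT ERY-V-VI against WT ERY-III-VI, 7 of 73 members were called lower and 1 higher, beside 31.2% of all genes called (18.4% higher and 12.9% lower). Both shares of the members lie below those of all genes. With library totals 54 were lower and 0 higher, for which the share of all genes is not given here. The medians were -0.55 and -0.01 (-1.70 and -1.16 with library totals). Mrps36 had 1.17, 1.92 and 0.423 CPM in WT ERY-V-VI against 15.3, 14.4 and 15.5 CPM in WT ERY-III-VI, far apart (-2.61 ± 0.49, adjusted p = 0.0011). Mrpl3 (-1.37), Mrpl15 (-1.10), Mrpl49 (-0.99) and Mrpl18 (-0.87) fell too. Mrpl32 was called higher (1.33 ± 0.28, adjusted p = 0.0027), with 12.2, 15.3 and 24.3 CPM in WT ERY-V-VI and 14.9, 13.6 and 17.7 CPM in WT ERY-III-VI, which overlap. The count of 8 was 4, 4 and 5 without WT ERY-III-VI replicate 1, 2 and 3, and 13 without any 1 of the WT ERY-V-VI libraries. All genes called changed too, from 1475 higher and 1032 lower of 8025. They were 1168 and 620 of 8282 without WT ERY-III-VI replicate 1, and 1537 and 1270 of 8428 without WT ERY-V-VI replicate 1. Mrpl12 (0.78), Mrpl10 (0.21), Mrpl11 (-0.71), Mrps12 (0.62), Mrps18a (-1.15), Mrps18c (-0.55), Mrps30 (0.07), Mrpl44 (-1.73), Mrps22 (-0.58) and Mrps16 (-0.26) were not called. Mrps18b had too few counts to be tested.

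The ratio of summed large to summed small subunit CPM was 1.85 to 1.87 in BFU-E, 1.92 to 2.103 for CFU-E, 1.92 to 2.11 at ERY-I, 2.32 to 2.43 for ERY-II, 2.24 to 2.57 in ERY-III and 2.31 to 3.08 for ERY-IV. It spread widely in ERY-V (1.49 to 4.52) and ERY-VI (1.58 to 3.67), where counts were few. In WT it was 1.87 to 1.904 in BFU-E, 1.89 to 1.94 for CFU-E, 1.97 to 2.07 in ERY-I-II and 2.26 to 2.35 in ERY-III-VI. Nuclear-encoded subunits of the respiratory chain assemble with the products of this ribosome. The members' sum as a ratio to theirs was 0.413 ± 0.00119 in BFU-E, 0.391 ± 0.0290 for CFU-E, 0.278 ± 0.0556 at ERY-I, 0.150 ± 0.0390 for ERY-II, 0.151 ± 0.0282 in ERY-III, 0.117 ± 0.0319 for ERY-IV, 0.114 ± 0.0580 at ERY-V and 0.0432 ± 0.0221 in ERY-VI (SD). In ERY-IV against CFU-E, 26 of 76 respiratory chain genes were called lower and 13 higher, with a median of -0.18; both shares lie below the 42.9% of all genes called lower and the 29.7% called higher. The ratio to the cytosolic ribosomal protein genes was 0.0806 ± 1.60e-04 in BFU-E, 0.0992 ± 0.0183 in CFU-E and 0.0835 ± 0.0386 in ERY-IV.

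For the knockout comparison, Glul checks the labels. It had 98.8 ± 2.41 CPM in GS-KO BFU-E and 122 ± 2.91 in WT BFU-E, 36.01 ± 1.39 in GS-KO CFU-E and 86.04 ± 3.16 in WT CFU-E, 14.9 ± 1.92 in GS-KO ERY-I-II and 110.1 ± 5.02 in WT ERY-I-II, 19.2 ± 2.91 in GS-KO ERY-III-VI and 159 ± 7.44 in WT ERY-III-VI, and 23.3 ± 0.882 in GS-KO ERY-V-VI and 254 ± 12.2 in WT ERY-V-VI (SD, n = 3 each). It was lower in GS-KO in all 5 gates, least in BFU-E. Summed neutrophil markers were higher in GS-KO in all 5 gates. The 8 neutrophil markers, all detected in every GS-KO library and 7 or 8 of them in every WT library, summed to 6682 to 6741 CPM in GS-KO against 26.5 to 35.6 in WT BFU-E, 4106 to 4174 against 24.7 to 28.3 in CFU-E, 5853 to 5947 against 102 to 107 in ERY-I-II, 9382 to 9457 against 237 to 243 in ERY-III-VI and 12618 to 12771 against 583 to 609 in ERY-V-VI. Their part in the differences that follow was not tested.

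In GS-KO BFU-E the members were slightly lower than in WT BFU-E. Their sum was 3525, 3528 and 3562 CPM in GS-KO against 3827, 3885 and 3883 CPM in WT, without overlap. The test called 15 of 77 lower and 0 higher, beside 24% of all genes called (15.4% higher and 8.56% lower), and the median was -0.09 against -0.01 for all genes. Mrpl52 had 152, 144 and 143 CPM in GS-KO against 169, 176 and 169 CPM in WT, all lower in GS-KO (-0.21 ± 0.04, adjusted p = 0.00012, edgeR). Mrpl17, at the tunnel exit, had 47.1, 48.7 and 47.9 CPM in GS-KO against 58, 62.5 and 60.9 CPM in WT (-0.33 ± 0.08, adjusted p = 0.00064). Mrps6 (-0.36), Mrpl38 (-0.28), Mrps18a (-0.28), Mrps35 (-0.25), Mrps22 (-0.22) and Mrpl12 (-0.19) fell too. Mrpl10 (-0.07 ± 0.09), Mrpl11 (-0.09 ± 0.09), Mrpl3 (-0.06 ± 0.06) and Mrpl44 (-0.16 ± 0.10) were not called. Without WT BFU-E replicate 1 the count of 15 was 9. All genes called there were 1644 higher and 710 lower of 11643, against 1752 and 972 of 11356 with all libraries. Mrps12 (-0.12), Mrps18b (-0.18), Mrps18c (0.07), Mrps30 (-0.15), Mrps36 (0.10) and Mrps16 (0.02) were not called.

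In CFU-E the sum was 4412, 4422 and 4501 CPM in GS-KO against 4646, 4583 and 4604 CPM in WT, and 7 of 77 members were called lower and 1 higher, beside 29.4% of all genes called (17.9% higher and 11.5% lower). Both shares of the members lie below those of all genes, and the median was -0.04 against 0.00. Mrpl30 had 91.8, 82.6 and 90.97 CPM in GS-KO against 101, 99.1 and 100.3 CPM in WT (-0.18 ± 0.05, adjusted p = 0.0040). Mrps24 (-0.19), Mrpl49 (-0.19), Mrps5 (-0.17), Mrpl45 (-0.15) and Mrpl3 (-0.11) fell by similarly small amounts. Mrpl48 had 22.4, 21.8 and 20.7 CPM in GS-KO against 15.4, 17.3 and 16.4 CPM in WT and was called higher (0.39 ± 0.10, adjusted p = 0.0032); it shares exonic bases with Rab6a on the opposite strand. Mrpl12 was at 0.00 ± 0.03. Without WT CFU-E replicate 3 the count of 8 was 5. All genes called there were 1756 higher and 969 lower of 11054, against 1941 and 1250 of 10859 with all libraries. DESeq2 called 4 members, for which the share of all genes is not given here. Mrpl10 (-0.04), Mrpl11 (-0.04), Mrps12 (0.05), Mrps18a (-0.03), Mrps18b (-0.03), Mrps18c (0.13), Mrps30 (0.02), Mrps36 (-0.14), Mrpl44 (-0.13), Mrps22 (-0.11) and Mrps16 (-0.06) were not called.

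The lower calls were most numerous in ERY-I-II. There the sum was 1993, 2036 and 2014 CPM in GS-KO against 2632, 2644 and 2641 CPM in WT, and 36 of 77 members were called lower and 0 higher, beside 40.3% of all genes called (22.9% higher and 17.5% lower). They were 22 large and 14 small subunit genes, and the median was -0.29 against -0.01 (-0.41 and -0.13 with library totals). Mrps24 (chr11:5703983-5715680, minus strand) had 37.7, 35.6 and 32.8 CPM in GS-KO against 62.5, 58.7 and 59.1 CPM in WT, far apart (-0.64 ± 0.10, adjusted p = 3.4e-08, edgeR); it shares exonic bases with Urgcp on its own strand. Mrpl3 (chr9:105053239-105079888, plus strand) had 40.1, 39.4 and 39.8 CPM in GS-KO against 62.01, 62.2 and 59.9 CPM in WT (-0.51 ± 0.09, adjusted p = 3.5e-06). Mrpl12 had 44.7, 42.8 and 40.2 CPM in GS-KO against 63.9, 63.7 and 63.2 CPM in WT (-0.46 ± 0.09, adjusted p = 1.6e-05). For these 3 genes all GS-KO libraries lay below all WT libraries.

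The other stalk genes Mrpl11 (-0.53) and Mrpl10 (-0.39) fell in GS-KO ERY-I-II as well, with Mrps35 (-0.58), Mrpl47 (-0.55), Mrps16 (-0.47), Mrpl45 (-0.43), Mrpl15 (-0.36), Mrps30 (-0.35) and Mrps18c (-0.30). Mrpl44 (-0.08 ± 0.17), Mrps22 (-0.04 ± 0.10), Mrps12 (-0.13 ± 0.21), Mrps18a (-0.19 ± 0.13), Mrps18b (0.07 ± 0.25) and Mrps36 (-0.35 ± 0.16) were not called. Of the cytosolic ribosomal protein genes, 71 of 82 were called lower and 2 higher (median -0.30), and of the respiratory chain genes 47 of 76 were lower and 0 higher (median -0.22), beside 17.5% of all genes called lower and 22.9% higher. Of the 9 erythroid markers 6 were called higher and 2 lower (Tfrc, called higher, was at 2562 CPM in GS-KO and 2592 CPM in WT), and summed progenitor markers were 157 to 162 CPM in GS-KO and 73.3 to 81.1 CPM in WT, and their part was not tested. The members' ratio to the respiratory chain genes was 0.284 ± 0.00325 in GS-KO and 0.291 ± 0.00139 in WT.

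**Figure D4:**
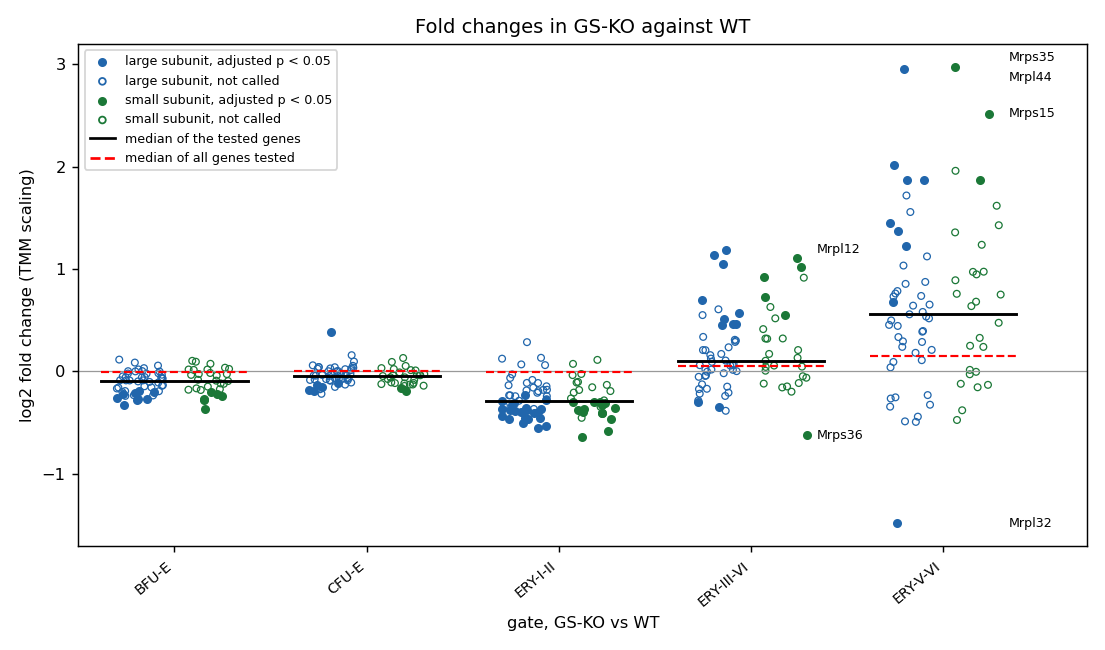
Log2 fold change (TMM scaling) of each tested member, GS-KO over WT, in the 5 gates of the knockout series; points are genes, large subunit left and small subunit right in each column, filled where the adjusted p was under 0.05, with black bars at the members' medians and red dashes at the medians of all genes. In ERY-I-II all 36 called members are below 0, and in ERY-V-VI 11 of the 12 called are above 0.

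In ERY-III-VI most calls went the other way. The sum was 1134, 1121 and 1124 CPM in GS-KO against 974, 947 and 924 CPM in WT. Of 75 members tested, 14 were called higher and 3 lower, beside 55.9% of all genes called (31.4% higher and 24.5% lower), so the members' shares lie below the background. With library totals 23 were higher and 1 lower, for which the share of all genes is not given here. The median was 0.10 against 0.05 (0.26 and 0.21 with library totals). Mrpl12 had 20.4, 17.9 and 16.8 CPM in GS-KO against 6.57, 9.31 and 5.37 CPM in WT, with every GS-KO library above every WT library (1.19 ± 0.20, adjusted p = 6.4e-07, edgeR). Mrps15 had 17.9, 14.6 and 17.5 CPM in GS-KO against 7.09, 9.19 and 7.36 CPM in WT (0.92 ± 0.19, adjusted p = 4.7e-05). Mrpl44 (1.05), Mrps2 (1.02), Mrps35 (0.72) and the tunnel exit genes Mrpl22 (0.51) and Mrpl45 (0.46) rose. Mrps36 (-0.63), Mrpl49 (-0.34) and Mrpl57 (-0.30) were called lower after TMM scaling. In CPM, 1 of the 77 members was lower in GS-KO without overlap and 36 were higher, so not all of these calls are separate in CPM. The share of all genes without overlap is not given here. Mrpl3 (0.11 ± 0.15), Mrps22 (-0.15 ± 0.17) and Mrps18c (-0.16 ± 0.14) were not called. Summed progenitor markers were 174 to 188 CPM in GS-KO and 21.96 to 24.1 CPM in WT, and their part was not tested. Mrpl10 (0.02), Mrpl11 (0.24), Mrps12 (0.32), Mrps18a (0.17), Mrps18b (0.32), Mrps30 (0.13) and Mrps16 (0.63) were not called.

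In ERY-V-VI the members took a larger share of counts in GS-KO. Their sum was 1044, 1074 and 1026 CPM in GS-KO against 300.3, 324 and 318 CPM in WT, and 1136 ± 25.5 against 391 ± 16.1 CPM with globin genes left out of the total (SD, n = 3 each). Every member was detected in every GS-KO library, while 4 to 5 were at 0 counts in a WT library. After TMM scaling 11 of 75 were called higher and 1 lower, beside 42.9% of all genes called (22.4% higher and 20.5% lower), so both shares of the members lie below those of all genes. With library totals 57 were called, for which the share of all genes is not given here. The median was 0.56 for the members and 0.15 for all genes (1.85 and 1.44 with library totals). Mrps15 had 22.5, 16.02 and 23.6 CPM in GS-KO against 2.34, 0.639 and 1.27 CPM in WT (2.52 ± 0.50, adjusted p = 0.00069, edgeR). Mrps35 (chr6:147042764-147073991, plus strand) had 9.45, 8.82 and 10.4 CPM in GS-KO against 0, 0.319 and 1.06 CPM in WT (2.98 ± 0.79, adjusted p = 0.0065). Mrpl44 (chr1:79776018-79781445, plus strand) had 6.98, 10.7 and 7.48 CPM in GS-KO against 0, 1.28 and 0.211 CPM in WT (2.96 ± 0.87, adjusted p = 0.012). These 3 genes do not overlap between the genotypes, and their WT values rest on 18, 6 and 5 counts.

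Mrpl22 (2.01), Mrps23 (1.87), Mrpl45 (1.45), Mrpl3 (1.37) and Mrpl18 (0.68) rose in GS-KO ERY-V-VI. Mrpl32 was called lower (-1.48 ± 0.31, adjusted p = 0.0011), although its CPM overlapped, with 15.8, 15.1 and 14.8 in GS-KO and 12.2, 15.3 and 24.3 in WT. Mrpl12 (0.34 ± 0.38), Mrps18a (1.24 ± 0.53), Mrps16 (0.97 ± 0.67) and Mrps36 (1.43 ± 0.69) were not called. The members' ratio to the respiratory chain genes was 0.253 to 0.257 in GS-KO and 0.141 to 0.170 in WT. Globin transcripts took 7.68% to 7.81% of counts in GS-KO and 19.6% to 19.8% in WT, and 9 of 9 erythroid markers were called lower in GS-KO after TMM scaling. In CPM, 3 of these 9 were higher in GS-KO: Gata1 (156 in GS-KO, 88.6 in WT), Klf1 (352 in GS-KO, 201 in WT) and Tfrc (2629 in GS-KO, 1994 in WT). Summed macrophage markers were 759 to 813 CPM in GS-KO and 47.9 to 58.1 CPM in WT, and progenitor markers 242 to 269.7 and 15.4 to 26.2 CPM; their part was not tested. The count of 12 was 6, 3 and 5 without GS-KO replicate 1, 2 and 3. All genes called fell too, from 2110 higher and 1924 lower of 9403 to 1572 and 1568 of 9715 without replicate 1. They were 1415 and 1592 of 9569 without replicate 2, and 1436 and 1588 of 9534 without replicate 3. Of the 12 genes, 3 were called in every fit that left out 1 library. Mrpl10 (-0.23), Mrpl11 (1.12), Mrps12 (-0.12), Mrps18b (0.64), Mrps18c (0.25), Mrps30 (-0.47) and Mrps22 (0.47) were not called.

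Whether the genotype difference depended on the gate was tested over all 30 libraries with a genotype by gate term. The term was called for 36 of 77 members, beside 61.2% of all genes tested (edgeR's quasi-likelihood test, 4 degrees of freedom). With library totals in place of TMM it was called for 75 of 77 members. The 61.2% belongs to the TMM fit, and the share of all genes under library totals is not given here. The smallest adjusted p were those of Mrps15 (6.58e-09), Mrpl12 (1.93e-08), Mrps35 (5.20e-08), Mrpl32 (8.61e-08), Mrpl45 (5.54e-06), Mrpl44 (7.52e-06), Mrpl18 (8.42e-06), Mrpl3 (1.55e-05), Mrpl15 (3.66e-05) and Mrpl22 (5.32e-05). For Mrps35 the log2 fold change between GS-KO and WT was -0.25 ± 0.07 in BFU-E, 0.03 ± 0.06 for CFU-E, -0.58 ± 0.15 in ERY-I-II, 0.72 ± 0.27 for ERY-III-VI and 2.98 ± 0.79 in ERY-V-VI, called in all gates but CFU-E. For Mrpl45 it was -0.22, -0.15, -0.43, 0.46 and 1.45 in the same order of gates, called in all 5. Mrpl12 was called in BFU-E, ERY-I-II and ERY-III-VI, and Mrpl32 and Mrpl18 in ERY-V-VI alone of the 5 gates.

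**Figure D5:**
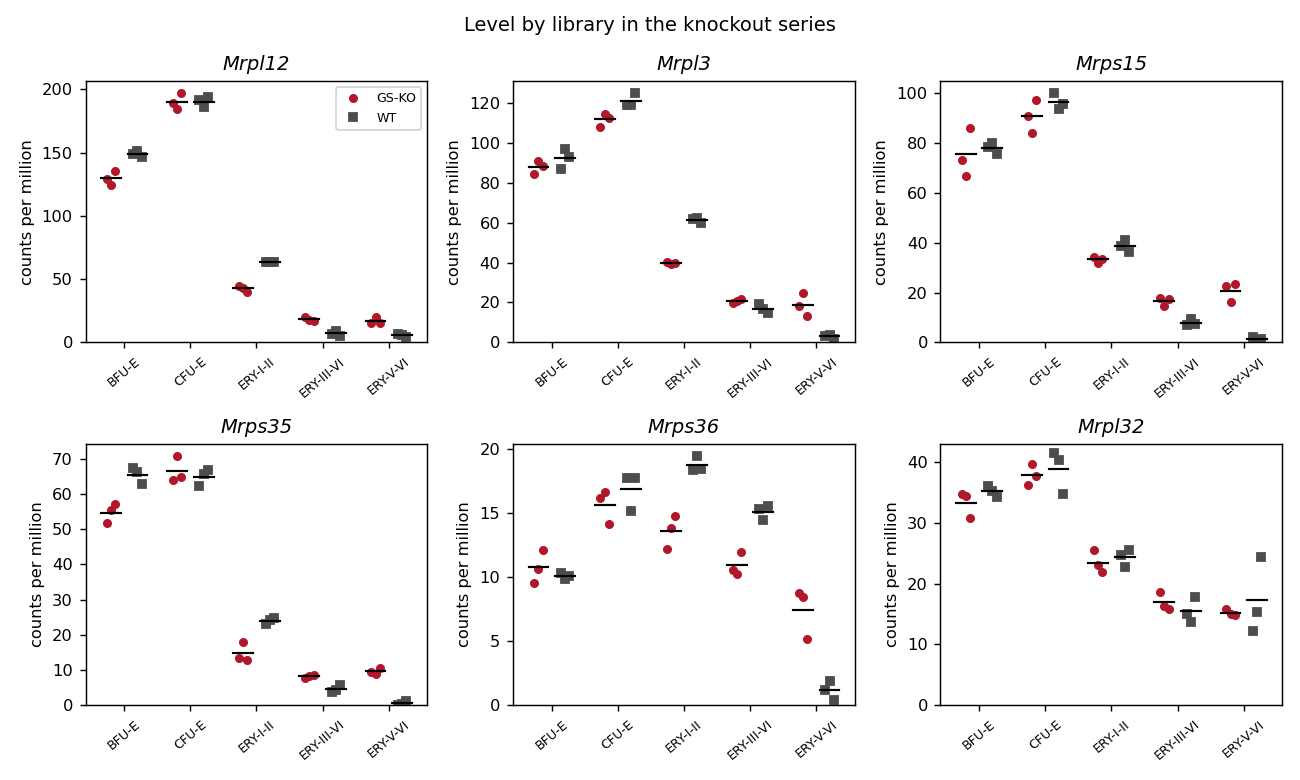
Level in CPM of Mrpl12, Mrpl3, Mrps15, Mrps35, Mrps36 and Mrpl32 in each library of the knockout series, by gate, with GS-KO (red circles) left of WT (grey squares) and black bars at the means. GS-KO lies below WT in ERY-I-II for Mrpl12, Mrpl3 and Mrps35 and above WT in ERY-V-VI for Mrps15 and Mrps35.

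The other genes of mitochondrial translation were counted from lists. In ERY-IV against CFU-E, 9 of 10 translation factors were called lower and 1 higher, 17 of 23 assembly factors lower and 2 higher, and 13 of 17 mitochondrial aminoacyl-tRNA synthetases lower and 2 higher. Of all genes tested there, 42.9% were called lower and 29.7% higher. Of the mitoribosomal proteins under other symbols, 5 of 6 were lower and 0 higher. Of the genes for transcription of mitochondrial DNA, 4 of 7 were lower and 0 higher. The 4 genes named next were chosen after their values were seen. Tufm, the elongation factor that brings tRNA to the ribosome, was at 1.19 CPM in ERY-IV and 103 CPM in CFU-E (-4.41 ± 0.44, adjusted p = 1.8e-06). Dap3, a small subunit protein that binds GTP, was at 13.99 CPM in ERY-IV and 138 CPM in CFU-E (-1.23 ± 0.20). Eral1, a chaperone of the small subunit's RNA, was at 23.98 CPM in ERY-IV and 33.8 CPM in CFU-E, lower in ERY-IV as a share of the library although called higher after TMM scaling (1.57 ± 0.24). The leucyl-tRNA synthetase Lars2 was called higher (2.501), with 5555 ± 832 CPM in ERY-IV and 4053 ± 4366 CPM in CFU-E (SD). Its spread in CFU-E exceeded its mean there, so the levels of the 2 gates are not set apart. In GS-KO against WT ERY-I-II, 4 of 10 translation factors, 2 of 23 assembly factors, 3 of 17 synthetases and 4 of 6 mitoribosomal proteins under other symbols were called lower, with 0, 2, 1 and 0 called higher. Of all genes tested there, 17.5% were called lower and 22.9% higher. Tufm was at 25.1 CPM in GS-KO and 38.8 CPM in WT (-0.51 ± 0.12, adjusted p = 0.00032), and Eral1 was higher in GS-KO (0.62 ± 0.16), at 19.1 CPM in GS-KO and 13.6 CPM in WT.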

How the data were processed

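Counts per gene for each library were used as deposited; the authors aligned reads with STAR 2.5.2b to mm10 and counted them with HTSeq, per the submitters' processing notes, and libraries came from Takara's stranded Pico Input kit for total RNA, per the labels' protocols. Values are raw counts. Each comparison was fitted on its own libraries with edgeR 4.0.16 in R 4.3.3 (quasi-likelihood test, TMM scaling, filterByExpr with a minimum count of 10 and a minimum total of 15, Benjamini-Hochberg adjustment over all genes tested, threshold 0.05). The genotype by gate test used all 30 libraries of the knockout series. CPM used the library total. For some comparisons the fit was also run on counts simulated from edgeR's own model of these data. Such counts hold no sets of libraries and no technical replicates, so these runs cannot show how the fits behave with them. Alternatives were DESeq2 1.42.0, other scalings, other filters (none, or a mean of at least 5 CPM), globin genes left out, the replicate number as a block, single sets of libraries and each library left out in turn. Shares of all genes called are given for the main fits and not for these alternatives. For some fits that left out 1 library, counts of all genes called are given instead. All 68 count columns were mapped to a sample and 0 were not. Gene positions and exon lengths came from GENCODE M21 and promoters from RefSeq on GRCm38.p6.

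Members and lists were chosen with earlier results of these data known. Named were, per comparison, called members with a mean of at least 5 CPM that had the 4 highest or 4 lowest fold changes or the 2 smallest adjusted p, plus 13 genes followed throughout, up to 10 genes of the interaction test, and Glul. A few further examples were added after their values were seen. Replicate numbers recur across gates, and the labels do not say what they share. Deviations of same-numbered libraries correlated at 0.32 to 0.43 between ERY-I and CFU-E. They correlated at 0.57 to 0.77 between ERY-III and ERY-II and at 0.33 to 0.62 between ERY-IV and ERY-III. In both ERY-I and CFU-E the Y-positive libraries carry the lowest replicate numbers and those with Xist the rest. The correlation there cannot tell pairing from the set of libraries. Differently numbered libraries were not compared, so pairing was not shown in any of these, and the block is an alternative only. In the other comparisons the correlations ran between -0.63 and 0.74, and the numbers are treated as names only.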

Additional observations from a re-analysis of the deposited data

Results flagged for a closer look

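Within groups of 4 to 7 libraries, 16 of 105 sets of values held 1 library far from the others by Dixon's test at the 95% level. Chance gives about 1 in 20, but that rate does not apply to 6 of the 16 sets, in which every other library is at 0 and the ratio is 1 by construction. In CFU-E, replicate 5 stood apart for Mrpl10 (61.2 CPM, others 44.6 to 48.9) and Mrps18a (85.8, others 48.6 to 59.3). In ERY-I, replicate 4 stood apart for the members' summed level (3781 CPM, others 2257 to 2792). In ERY-II, Mrps22 was low in replicate 4 (2.11 CPM, others 8.81 to 9.87) and Mrps16 high in replicate 3 (6.87, others 2.37 to 2.94). In ERY-III, replicate 4 was low for Mrps12 (3.52 CPM, others 8.27 to 8.84) and Mrps16 (1.32, others 5.06 to 5.82). In ERY-IV, Mrps18b was at 0.168 CPM in replicate 1 and at 0 in the others.

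In ERY-V, Mrpl12 was at 7.56 CPM in replicate 2 (others 0 to 3.10), Mrpl44 at 10.3 in replicate 1 (others 0 to 0.815) and Mrps16 at 4.96 in replicate 3 (others 0 to 1.79). In ERY-VI, Mrpl12 (0.946 CPM, replicate 2), Mrpl10 (1.12, replicate 3), Mrps18a (1.89, replicate 2), Mrps18b (1.12, replicate 3) and Mrps36 (9.81, replicate 4) were each seen in 1 library and at 0 in the other 3.

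For 36 of 77 members the difference between GS-KO and WT differed between gates, beside 61.2% of all genes (genotype by gate test, edgeR's quasi-likelihood). With library totals it was 75 of 77, for which the share of all genes is not given here. With TMM scaling the smallest values were those of Mrps15 (adjusted p = 6.58e-09), Mrpl12 (1.93e-08), Mrps35 (5.20e-08), Mrpl32 (8.61e-08), Mrpl45 (5.54e-06), Mrpl44 (7.52e-06), Mrpl18 (8.42e-06), Mrpl3 (1.55e-05), Mrpl15 (3.66e-05) and Mrpl22 (5.32e-05). For Mrps15 the log2 fold change between GS-KO and WT was -0.03 in BFU-E, -0.08 for CFU-E, -0.10 in ERY-I-II, 0.92 for ERY-III-VI and 2.52 in ERY-V-VI.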

How the results depend on the processing

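Of 301 recomputed counts of called members, 247 stayed within 1.5 times the reported count and 54 did not. Of 4284 recomputed gene results, 4006 were counted as unchanged, 202 lost the call, 66 gained it and 10 reversed. Direction was compared only where either fit called the gene. A gene called in neither counts as unchanged whatever its sign, and results of the interaction test have no direction. With library totals in place of TMM, the counts were 73 in ERY-II against ERY-I, 10 in ERY-IV against ERY-III, 2 in ERY-V against ERY-IV, 57 in GS-KO against WT ERY-V-VI, 54 in WT ERY-V-VI against ERY-III-VI and 75 in the interaction test. They also reversed the ERY-VI against ERY-V median (-1.48), ERY-II against ERY-I Mrpl32 (-0.37), Mrps18c (-1.03) and Mrps36 (-1.10), ERY-IV against CFU-E Mrps18c (-1.84) and Mrps36 (-1.504), WT ERY-III-VI against ERY-I-II Mrps36 (-0.32), Mrpl49 (-0.41) and Mrpl57 (-0.49), and WT ERY-V-VI against ERY-III-VI Mrps30 (-1.08). Mrps36 in ERY-I against CFU-E reversed with Y-positive libraries only (-0.40), where 71 members were called. DESeq2 called 4 in ERY-IV against ERY-III, 4 in ERY-V against ERY-IV and 4 in GS-KO against WT CFU-E. With globin genes left out 1, and with no low-count filter 3, were called in ERY-V against ERY-IV, and no filter gave 13 in WT ERY-V-VI against ERY-III-VI. In ERY-VI against ERY-V the count was 0 with globin genes out, no filter, a stricter filter, Xist libraries only, or triplicates summed. In CFU-E against BFU-E the summing left 1 BFU-E library, so calls of that fit are not read here. The cause of these changes was not tested.

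With the replicate number as a block, 66 members were called in ERY-I against CFU-E, 3 in ERY-III against ERY-II, 8 in ERY-IV against ERY-III, 3 in ERY-V against ERY-IV and 0 in ERY-VI against ERY-V; in the other comparisons the block left the count within 1.5 times.

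Without 1 library at a time, counts ran between 13 (without BFU-E replicate 3) and 58 in CFU-E against BFU-E, 38 and 47 in ERY-I against CFU-E, 40 and 44 in ERY-II against ERY-I, 0 and 0 in ERY-III against ERY-II, 1 and 3 in ERY-IV against ERY-III, 0 and 1 in ERY-V against ERY-IV, 0 and 1 in ERY-VI against ERY-V, and 55 and 60 in ERY-IV against CFU-E. Between GS-KO and WT they ran between 9 (without WT replicate 1) and 17 in BFU-E, 5 (without WT replicate 3) and 10 in CFU-E, 27 and 31 in ERY-I-II, 12 and 19 in ERY-III-VI, and 3 (without GS-KO replicate 2) and 17 in ERY-V-VI. Between WT gates they ran between 59 and 64, 60 and 62, 67 and 68, and 4 and 13 in order of stage, and the interaction count between 34 and 38. The number of all genes called also changed between these fits.

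The members hold 93 to 155 counts in an ERY-VI library, and 8 of 77 could be tested there. Library totals and TMM place the zero of each comparison differently, and neither measures RNA per cell.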
